A study of Mus musculus with 6 samples.

Results

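Transcripts of 10 genes that remove reactive oxygen species or are induced by the transcription factor NRF2 were examined in mouse type II alveolar epithelial cells. The genes were chosen by name, with earlier results of these data known. They are Gclc, Gclm, Sod1, Sod3, Cat, Gpx2, Srxn1, Txnrd1, Nqo1 and Hmox1. Each was read from a microarray probe set annotated with that 1 gene symbol, and the brightest would have been taken where a gene had several. All 10 genes were measured, each by 1 probe set, among 19938 genes tested. The study pooled type II cells of 3 mice for each of 6 arrays, with 3 pools per group, from adult mice aged 8 weeks. Cells were obtained with collagenase and differential plating and were lysed 2 hours after isolation. Control pools were double-transgenic for SP-C-rtTA and (tetO)7CMV-Cre. The other pools were triple-transgenic, with Gpr116flx/flx beside both of these transgenes, so that cells using the surfactant protein C promoter should lose the adhesion receptor Gpr116. Littermates were matched for sex and age. Both groups thus carried the reverse tetracycline transactivator and Cre recombinase, and neither group shows the effect of the flx/flx alleles without Cre. The comparison asked how loss of Gpr116 changes transcripts of these cells.

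NRF2 (gene Nfe2l2) is held in the cytoplasm and sent for degradation by KEAP1. Oxidants and electrophiles modify KEAP1, and NRF2 then pairs with small MAF proteins on antioxidant response elements, where the repressor BACH1 competes with it. Its targets make glutathione, reduce thioredoxin and quinones, conjugate electrophiles and break down haem. Lung epithelium is exposed to inhaled oxygen and oxidants, and superoxide dismutases, catalase and glutathione peroxidases act there in sequence on superoxide and hydrogen peroxide.

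The values are log2 expression values, so a difference of 1 is a doubling. Gpr116 itself, listed as Adgrf5, read 11.89, 11.78 and 11.87 in the pools labelled knockout against 11.49, 11.53 and 11.51 in controls, which goes against a loss of its transcript. Where its probes lie relative to the floxed exons is not known here, whether its level bears on the genotype was not tested, and every direction below rests on the labels. The 10 type II cell markers averaged 12.24 to 12.29 in the pools labelled knockout and 12.18 to 12.20 in controls. The arrays labelled knockout differed more among themselves than the control arrays did, with a median SD of a gene of 0.0907 against 0.0624. On knockout 1 the T cell genes Cd3g and Cd8a read 6.80 and 7.75, against at most 5.24 and 6.18 on the other 5 arrays. The fibroblast gene Tcf21 read 7.74 on knockout 1 and 10.04 on knockout 2. The fibroblast genes Dcn (11.41 and 10.63) and Lum (5.21 and 4.61) went the other way. Knockout 2 and control 1 were male pools by Xist and Y-linked genes. The first number in the array titles was 9 or 11 for the arrays labelled knockout and 8 or 10 for control arrays. The labels do not explain it. If it marks a batch, batch and genotype cannot be told apart.

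Sod1, the cytosolic superoxide dismutase, was the 1 member that passed the test, and it fell. Gpx2, a glutathione peroxidase of epithelia, and Nqo1, the quinone reductase and a standard NRF2 target, had larger negative differences and did not pass. Of the 10 members 1 was called lower and 0 were called higher (limma, adjusted p under 0.05 over all genes). Over all genes 5.13% were called lower, 3.36% higher and 8.49% in either direction, so the members' count is near that of genes at large. At an unadjusted p under 0.05, 4 members were lower and 1 was higher, where 10.6% and 11.5% of all genes were. With the replicate number as a block, Gpx2 passed too (adjusted p = 0.0274), which made 2 members lower where 4.86% of genes were. Members called lower numbered 3 with array quality weights and 0 with the sex of the pool as a covariate, where 6.44% and 4.01% of all genes were. In 5 of the 10 genes the 2 groups did not overlap, 4 of them lower and 1 higher. Such separation was seen in 27.6% of all genes, 12.8% lower and 14.8% higher. The median difference of the members was -0.16, and that of all genes was 0.0033.

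**Figure D1:**
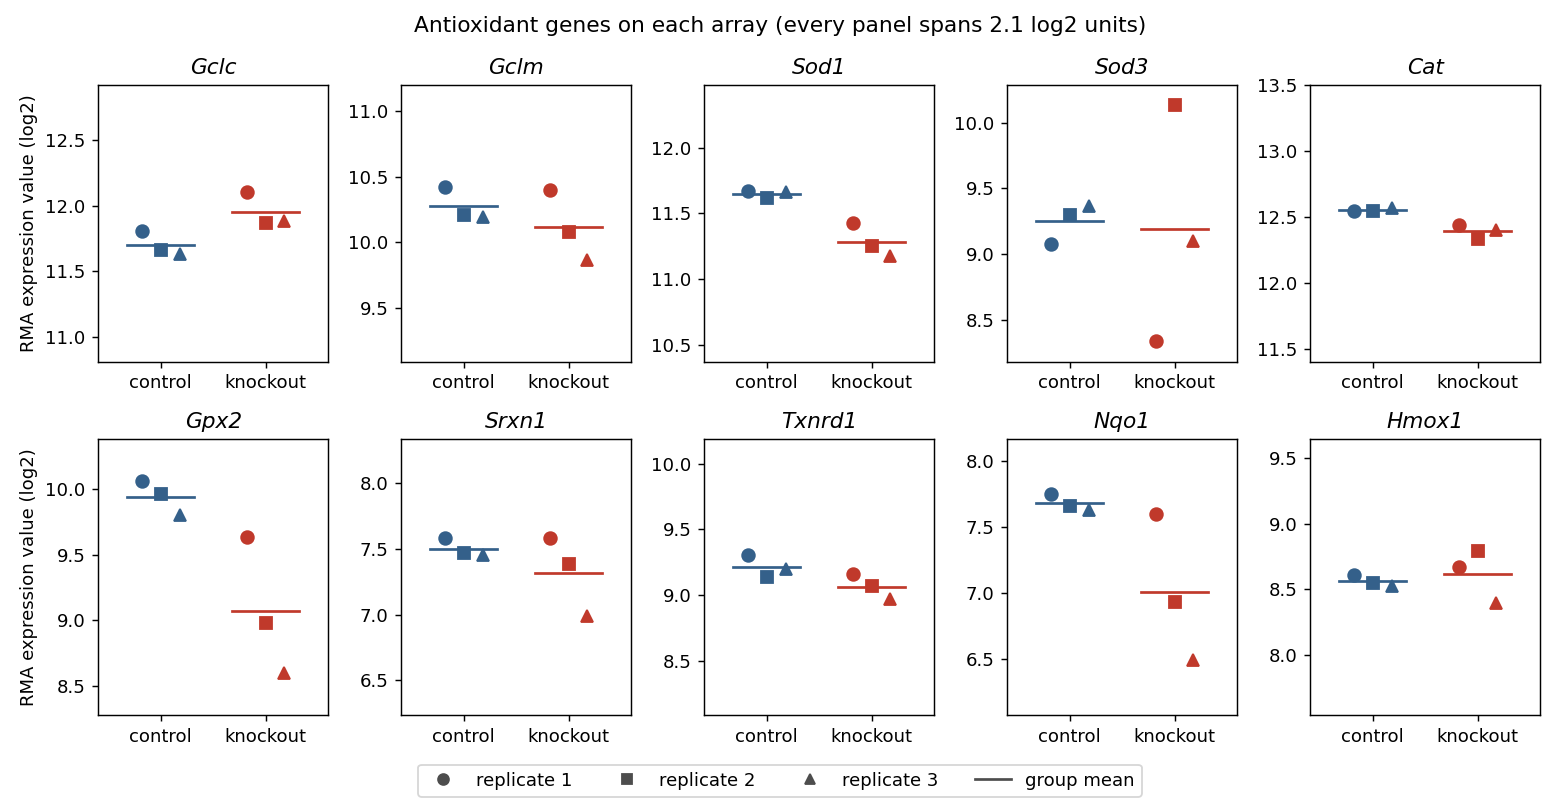
Log2 RMA expression value (y axis) of each of the 10 genes on the 3 control arrays and the 3 arrays labelled knockout (x axis). Symbols mark the replicate and lines the group mean, and every panel spans the same log2 range. Sod1, Cat, Gpx2 and Nqo1 lie below all control arrays on all 3 arrays labelled knockout, Gclc lies above, and Sod3 spreads from 8.34 to 10.13 on the arrays labelled knockout.

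Glutathione synthesis starts with glutamate-cysteine ligase, made of the catalytic subunit Gclc and the modifier subunit Gclm. Gclc read 12.10, 11.87 and 11.88 on knockout 1, 2 and 3 and 11.81, 11.66 and 11.63 on control 1, 2 and 3. All 3 values labelled knockout lay above all control values, yet the difference of 0.25 ± 0.084 (SE, n = 3 per group) did not pass (adjusted p = 0.134). Gclm read 10.40, 10.08 and 9.87 against 10.42, 10.21 and 10.19. Here the groups overlapped, since knockout 1 lay among the controls, and the difference was -0.16 ± 0.14 (adjusted p = 0.583). The Gclm difference depended on single arrays, at -0.033 without knockout 3, -0.083 without control 1 and -0.298 without knockout 1. The gap between their 2 probe sets within an array was 1.70, 1.79 and 2.01 in the pools labelled knockout, against 1.39, 1.45 and 1.44 in controls. It differed by 0.41 between the groups with no overlap, a contrast chosen after the values were seen. No test is given for it, and 3 arrays against 3 could not reach an exact permutation p below 0.1.

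Superoxide is converted to hydrogen peroxide by Sod1 in the cytosol, by Sod2 in mitochondria and by Sod3 outside the cell. Sod1 read 11.43, 11.25 and 11.18 on knockout 1, 2 and 3 and 11.67, 11.62 and 11.66 on control arrays. Every array labelled knockout was lower than every control array, and the control values had an SD of 0.026. Sod1 fell by 0.36 ± 0.073 to 77.7% of the control level (95% interval 69.0% to 87.6%; adjusted p = 0.0274). The call was kept without knockout 1 and lost without any 1 of the other 5 arrays, at -0.31 to -0.38 and an adjusted p of 0.0535 to 0.112. The share of all genes called lower in those fits was 5.29% without knockout 2, 3.01% without knockout 3, and 1.95%, 1.86% and 1.51% without control 1, 2 and 3. With the sex of the pool as a covariate the adjusted p was 0.0533.

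Sod3, the extracellular superoxide dismutase, which binds to matrix and vessel walls, behaved differently. It read 8.34, 10.13 and 9.10 on knockout 1, 2 and 3 and 9.08, 9.30 and 9.37 on control arrays. The arrays labelled knockout held both the lowest and the highest value of the 6, and their SD was 0.90 against 0.15 in controls. The difference was -0.06 ± 0.40 (adjusted p = 0.961), with a 95% interval from 49.9% to 184% of the control level, too wide to show whether Sod3 differs. Without knockout 1 it was 0.365, and without knockout 2 it was -0.53. The genes most like Sod3 over the 6 arrays, picked after its values were seen, were the scavenger receptor Colec12 (r = 0.999), the metalloproteinase Adamts17 (r = 0.998) and the membrane protein gene Tmem132c (r = 0.997). The fibroblast genes Tcf21 (7.74, 10.04 and 8.90) and Pdgfra (9.12, 11.08 and 10.18) were likewise lowest on knockout 1 and highest on knockout 2. With Col1a2 these made 3 of 8 fibroblast markers, whereas Dcn (11.41, 10.63 and 10.48) and Lum (5.21, 4.61 and 4.98) were highest on knockout 1. The mean of the 8 was 8.73 to 9.35 in the pools labelled knockout, against 8.97 to 9.21 in controls. Among all genes 14.1% had that order. The part of other cells in the Sod3 values was not tested.

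Hydrogen peroxide is cleared by catalase and by glutathione peroxidases. Cat read 12.44, 12.33 and 12.40 on knockout 1, 2 and 3 and 12.54, 12.54 and 12.57 on control arrays. The groups did not overlap, but the difference was small, at -0.16 ± 0.052, and did not pass (adjusted p = 0.123; 95% interval 82.3% to 97.4% of control). Cat lies within 1 unit of the highest value on the arrays, where array signals can compress differences. Gpx2 had the largest difference of the 10 genes. It read 9.63, 8.98 and 8.60 against 10.06, 9.96 and 9.80, and all 3 arrays labelled knockout were below all controls. The distance from the controls was smallest on knockout 1 and largest on knockout 3. Gpx2 stood at 54.7% of the control level (95% interval 37.0% to 80.8%), a difference of -0.87 ± 0.24 with adjusted p = 0.0754. Without knockout 1 it was -1.15 and passed (adjusted p = 0.00257).

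Srxn1 and Txnrd1 keep thiol enzymes active. Sulfiredoxin, the product of Srxn1, repairs overoxidised peroxiredoxins, and thioredoxin reductase 1 recharges thioredoxin with electrons from NADPH. Srxn1 read 7.58, 7.38 and 6.99 on knockout 1, 2 and 3 and 7.58, 7.47 and 7.45 on control arrays. Knockout 1 matched the highest control and knockout 3 lay well below the rest, so the groups overlapped (-0.18 ± 0.14, adjusted p = 0.527). Without knockout 3 the difference was -0.02, and without knockout 1 it was -0.315. Txnrd1 read 9.16, 9.07 and 8.97 against 9.31, 9.14 and 9.20. Knockout 1 overlapped the lowest control, and the difference was -0.15 ± 0.072 (adjusted p = 0.287; 95% interval 80.1% to 101% of control).

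Nqo1 reduces quinones without forming radicals, and Hmox1 is the inducible haem oxygenase. Nqo1 read 7.60, 6.93 and 6.49 on knockout 1, 2 and 3 and 7.75, 7.66 and 7.63 on control arrays. The control values lay close together (SD 0.062), whereas knockout 1 was just below them and knockout 3 more than 1 unit below. The difference was -0.67 ± 0.25, or 62.7% of control, and did not pass (adjusted p = 0.170). Without knockout 1 it was -0.97 (adjusted p = 0.00476), and 3 members were then called lower, Sod1, Gpx2 and Nqo1, where 6.34% of all genes were. Without knockout 3 it was -0.42. Hmox1 read 8.67, 8.79 and 8.40 against 8.61, 8.55 and 8.53. The arrays labelled knockout lay on both sides of the controls (0.057 ± 0.10, adjusted p = 0.815), and the 95% interval ran from 88.4% to 122% of control. For Hmox1 the sign of the difference turned without knockout 2 (-0.028).

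**Figure D2:**
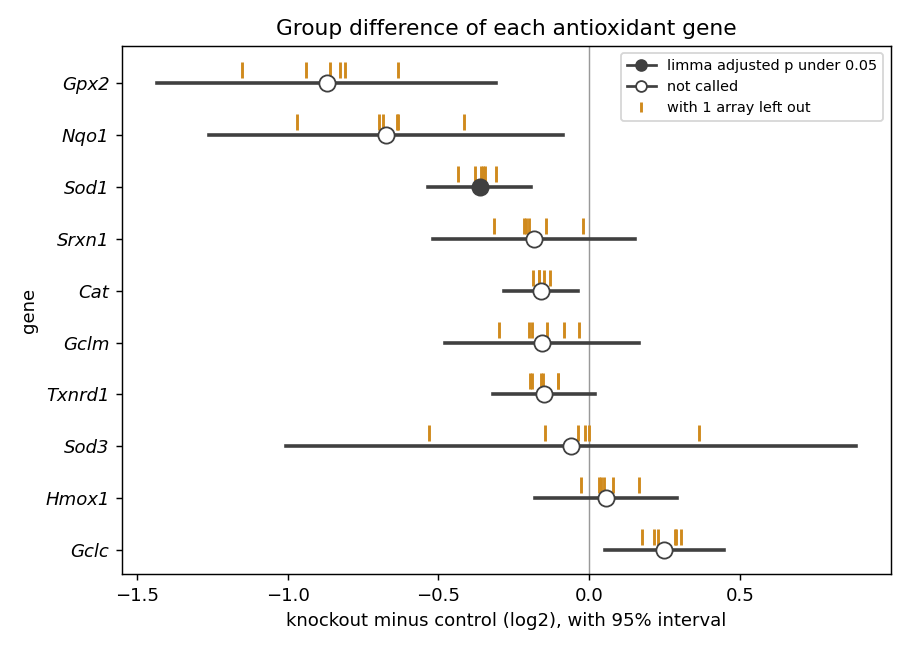
Difference between arrays labelled knockout and control arrays on log2 (x axis) for each gene (y axis). Circles are the fitted difference, filled where the limma adjusted p was under 0.05, with the 95% interval as a bar, and ticks give the difference with 1 of the 6 arrays left out. Sod1 at -0.36 is the 1 filled circle, and the ticks of Sod3 reach from -0.53 to 0.365.

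Nqo1, Gpx2, Sod1, Gclm, Srxn1 and Txnrd1, 6 of the 10 genes, were highest on knockout 1 and lowest on knockout 3 among the arrays labelled knockout. That order was found in 17% of all genes and in 54.2% of the genes called lower. It is also the order of these arrays on principal component 1, where knockout 1, 2 and 3 read 12.7, 16.1 and 22.4 and control arrays -15 to -18.7. Ciliated cell markers had the same order. Of 12 listed, 11 were measured, all 11 were called lower, and their mean was 8.84, 8.46 and 8.29 on knockout 1, 2 and 3 against 9.49 to 9.57 on control arrays. Of 8 club cell markers 4 were called lower, with means of 10.01 to 10.89 against 10.68 to 10.88. Club cell markers did not share 1 order: Cldn10 was lowest on knockout 3 (9.39, 8.70 and 8.25), while Scgb3a1 (10.13, 10.15 and 12.02), Muc5b and Bpifa1 were highest there, and 3 of the 8 had the order of Nqo1. The RMA scale has no zero, so no marker can be called absent, and fewer cells of a type and less RNA per cell cannot be told apart in pooled RNA. The part of ciliated and club cells in the values of Nqo1, Gpx2 and Sod1 was not tested.

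**Figure D3:**
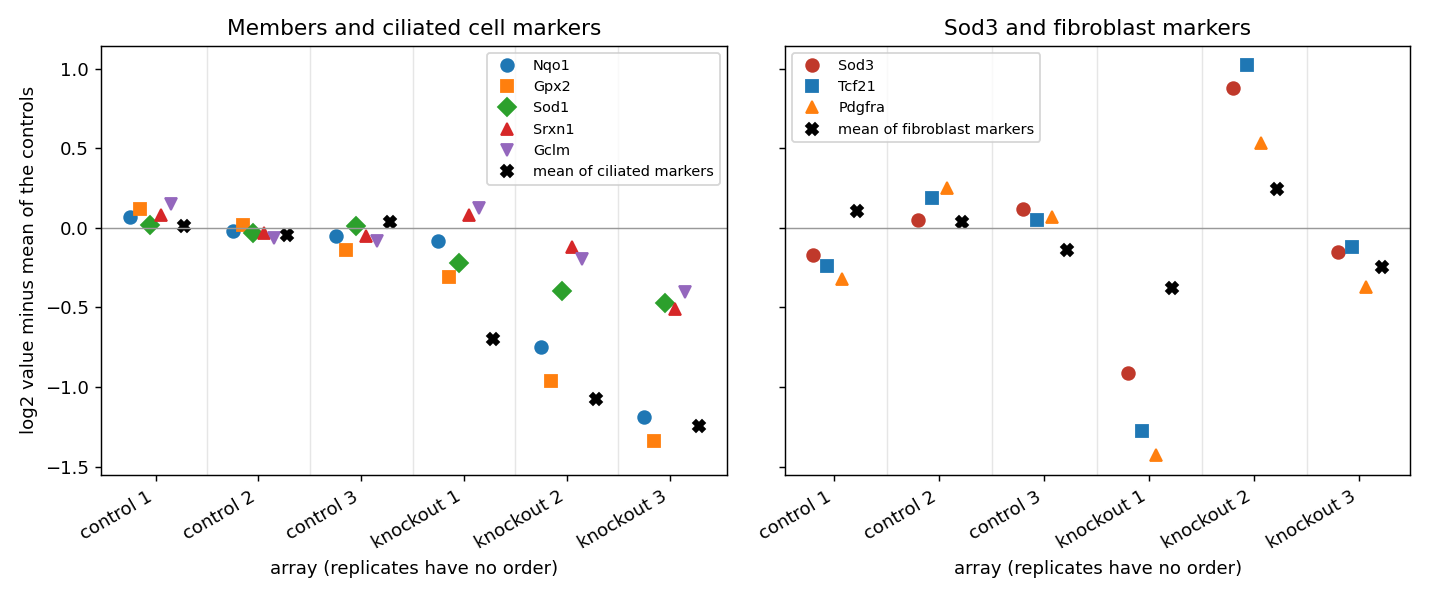
Log2 value minus the mean of the 3 control arrays (y axis) on each of the 6 arrays (x axis), for 5 of the genes with the mean of the ciliated cell markers (left) and for Sod3 with fibroblast markers (right). Nqo1, Gpx2 and the ciliated marker mean all lie lowest on knockout 3. Sod3, Tcf21 and Pdgfra are lowest on knockout 1 and highest on knockout 2. Among arrays labelled knockout, 3 of 8 fibroblast markers had that order, and Dcn and Lum, not drawn singly, were highest on knockout 1.

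The genes whose values over the 6 arrays were most like those of Sod1 were the small membrane protein gene Ctxn1, the lyase Hmgcll1 and the cytochrome P450 Cyp1b1 (r = 0.999 each). Cyp1b1 read 7.66, 7.27 and 7.06 against 8.15, 8.06 and 8.13. Those most like Gpx2 were the kinase Pnck (r = 0.999), the LIM protein gene Csrp2 (r = 0.998) and the helicase Ddx31 (r = 0.997). Csrp2 read 8.64, 8.12 and 7.83 against 8.94, 8.86 and 8.69. These correlations hold over 6 arrays that share the 2 groups, and they describe likeness of values only.

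Promoter sequence is shown for the 3 genes with the lowest differences, Gpx2, Nqo1 and Sod1, and for Srxn1, which holds both forms of the antioxidant response element that were searched. RefSeq windows (GRCm38.p6) of 250 bases before to 50 after a gene's start were found for 7 of the 10 genes, 9 windows in all. Both strands were searched for TGACNNNGC and for TGANTCAGC. The 2 overlap, since a TGANTCAGC site with C at its N is also a TGACNNNGC site. Capitals mark each match, and lines run from 5′ to 3′ on the strand of the gene.
Sod1, chr16:90220512-90220811, plus strand: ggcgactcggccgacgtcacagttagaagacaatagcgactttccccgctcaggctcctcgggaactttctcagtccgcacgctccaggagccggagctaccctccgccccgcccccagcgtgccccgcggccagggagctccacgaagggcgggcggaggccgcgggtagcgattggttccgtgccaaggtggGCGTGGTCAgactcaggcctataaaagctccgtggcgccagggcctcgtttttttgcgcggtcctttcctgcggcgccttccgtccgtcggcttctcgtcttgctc
Srxn1, chr2:152105274-152105573, plus strand: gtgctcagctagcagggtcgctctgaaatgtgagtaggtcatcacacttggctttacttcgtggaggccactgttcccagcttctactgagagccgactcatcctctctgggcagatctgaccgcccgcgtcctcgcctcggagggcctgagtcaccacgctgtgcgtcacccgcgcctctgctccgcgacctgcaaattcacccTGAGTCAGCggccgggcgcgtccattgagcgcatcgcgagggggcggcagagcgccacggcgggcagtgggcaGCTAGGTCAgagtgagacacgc
Gpx2, chr12:76795505-76795804, minus strand: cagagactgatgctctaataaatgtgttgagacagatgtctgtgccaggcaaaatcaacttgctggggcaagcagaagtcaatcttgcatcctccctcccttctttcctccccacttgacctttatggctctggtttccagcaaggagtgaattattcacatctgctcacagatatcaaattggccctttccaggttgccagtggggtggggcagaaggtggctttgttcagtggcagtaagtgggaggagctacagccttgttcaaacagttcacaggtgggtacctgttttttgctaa
Nqo1, chr8:107403156-107403455, minus strand: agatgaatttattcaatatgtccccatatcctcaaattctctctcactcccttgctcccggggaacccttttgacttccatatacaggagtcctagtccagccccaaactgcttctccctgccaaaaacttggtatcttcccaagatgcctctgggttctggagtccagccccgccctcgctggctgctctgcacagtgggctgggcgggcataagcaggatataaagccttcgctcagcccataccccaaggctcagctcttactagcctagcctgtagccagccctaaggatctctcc
Sod1 held 1 TGACNNNGC match, on the opposite strand, whose first printed base lies at position -56 from the gene's start. Srxn1 held such a match at position 28, also on the opposite strand, and TGAGTCAGC at position -45. In Gpx2 and Nqo1 neither motif was in this window, which says nothing of the sequence beyond it. Gclm and 1 of 3 Txnrd1 windows also held TGACNNNGC, so that 4 of 9 member windows did, in 4 of 7 member genes. Of 108 windows of the listed genes, members included, 19 (17.6%) held it. Members were chosen in part as NRF2 targets, so these shares are no independent result. Of all 32851 windows of that length 12.4% held TGACNNNGC and 1.19% held TGANTCAGC. A match is a run of letters and not a shown binding site.

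Of 10 regulators of the pathway, 0 were called by limma, where 8.49% of all genes were. At an unadjusted p under 0.05, 2 were lower and 0 higher, beside 10.6% and 11.5% of all genes. Nfe2l2 read 11.77, 11.72 and 11.83 on knockout 1, 2 and 3 and 11.83, 11.78 and 11.80 on control arrays, which overlap (-0.03 ± 0.052, adjusted p = 0.812). Keap1 stood at -0.01 ± 0.061 (adjusted p = 0.955), with a positive sign under 3 of 15 alternatives. Bach1, the repressor, read 9.28, 9.25 and 9.57 against 9.16, 9.15 and 9.22. All its values labelled knockout were above the controls without passing (0.19 ± 0.091, adjusted p = 0.286). The 2 regulators with the smallest p were Sqstm1, the autophagy receptor that binds KEAP1, at -0.22 ± 0.068 (adjusted p = 0.103), and the ubiquitin ligase subunit Btrc at -0.18 ± 0.075 (adjusted p = 0.216).

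Among the lists, NRF2-induced enzymes of quinone, carbonyl and conjugation chemistry held most of the lower calls. The list was chosen with earlier results of these data known, so its counts are a description and not a test. Of 20 measured in a list of 23, which includes Nqo1, 7 fell, 2 rose and 11 did not pass, beside 5.13% and 3.36% of all genes. Their median was -0.43, against 0.0033 over all genes. Of the 20 differences 18 were negative, as were 9583 of the 19938 over all genes. The epoxide hydrolase Ephx1 read 10, 9.93 and 9.47 on knockout 1, 2 and 3 and 10.78, 10.71 and 10.73 on control arrays. It fell by 0.94 ± 0.13 to 52.1% of control with no overlap between the groups (adjusted p = 0.00932). The glutathione transferase Gstm3 fell by 0.50 ± 0.10, the organic anion exporter Abcc3 by 0.43 ± 0.075 and the stress response gene Osgin1 by 0.45 ± 0.092. With the replicate block Osgin1 missed the threshold (adjusted p = 0.0510) and the transferase Gsta4, at -0.45, passed it (0.0235, from 0.0580). Osgin1 kept its call under 9 of 15 alternatives. Ephx1 lost its call without control 3 (adjusted p = 0.0540), Gstm3 without any 1 of the controls (up to 0.113), and Abcc3 and Osgin1 without knockout 3 or a single control (up to 0.0822 and 0.125). Outside the naming rule the transferases Gsta3 (-0.86 ± 0.18) and Gstm1 (-0.72 ± 0.15) and the exporter Abcc1 (-0.44 ± 0.093) were also called lower. Probes of transferases that are close in sequence can share signal, which was not tested. In the other direction, the nucleotide exporter Abcc4 rose by 0.51 ± 0.045, from 7.48 on all 3 control arrays to 7.98, 8.00 and 7.99, and the aldo-keto reductase Akr1b8 by 0.52 ± 0.087 (adjusted p = 0.00389 and 0.0152). Akr1b8 was not called without knockout 3, control 2 or control 3 (adjusted p at most 0.0641). The list's lower calls numbered 13 with array quality weights and 6 with the sex of the pool as a covariate, where 6.44% and 4.01% of all genes were. They numbered 10 without knockout 1, 8 without knockout 2 and 5 without knockout 3, where 6.34%, 5.29% and 3.01% of all genes were. Without control 1 or control 2 the number was 1, where 1.95% and 1.86% of all genes were called lower. Without control 3 there were 0 by limma, where 1.51% of all genes were called lower. Among the 20 genes, 9 had the order of knockout arrays that Nqo1 and the ciliated markers had. The share with that order was 17% of all genes and 54.2% of all genes called lower. The part of other cells in this list was not tested.

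Around Gclc and Gclm, other genes of glutathione synthesis and recycling went both ways. Of 14 measured, 3 rose, 1 fell and 10 did not pass (median -0.045), beside 3.36% of all genes called higher and 5.13% lower. Glutaredoxin Glrx, which removes glutathione from protein thiols, read 10.50, 10.24 and 10.66 on knockout 1, 2 and 3 and 9.51, 9.55 and 9.55 on control arrays. It rose 1.91-fold (0.93 ± 0.10, adjusted p = 0.00493), with the groups far apart, and kept its call under all 15 alternatives. The glutathione-degrading cyclotransferase Chac2 rose by 0.71 ± 0.11 and the oxoprolinase Oplah by 0.26 ± 0.058 (adjusted p = 0.0130 and 0.0402). Glutathione synthetase Gss, which acts after Gclc and Gclm, read 8.70, 8.38 and 8.53 against 8.98, 8.93 and 8.97 and fell by 0.42 ± 0.084 (adjusted p = 0.0263). Chac2 lost its call without knockout 3, control 2 or control 3, and Gss without knockout 3 or a single control (adjusted p at most 0.0602 and 0.109). Oplah was called without knockout 2 alone among such fits, and not with the replicate block (adjusted p = 0.0620).

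In the thioredoxin, peroxiredoxin and sulfiredoxin list 2 of 14 measured genes rose and 0 fell by limma, also at an unadjusted p under 0.05, where 4 were higher (median 0.09). Of all genes 3.36% were called higher, and 11.5% were higher at the unadjusted threshold. The mitochondrial peroxiredoxin Prdx3 read 10.47, 10.45 and 10.56 on knockout 1, 2 and 3 and 10.20, 10.12 and 9.99 on control arrays, and rose by 0.39 ± 0.069 (adjusted p = 0.0185). Prdx4, the peroxiredoxin of the endoplasmic reticulum, rose by 0.40 ± 0.074 (adjusted p = 0.0217). In both genes the groups did not overlap, whereas Srxn1, which repairs peroxiredoxins, overlapped. Neither was called without knockout 3, control 2 or control 3, and Prdx4 also not without control 1 (adjusted p at most 0.0791 for Prdx3 and 0.0972 for Prdx4).

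None of the 6 glutathione peroxidases was called by limma, where 8.49% of all genes were. At an unadjusted p under 0.05, 1 was higher and 1 lower, beside 11.5% and 10.6% of all genes. Gpx1, the cytosolic enzyme, read 11.46, 11.20 and 11.12 on knockout 1, 2 and 3 and 11.03, 10.98 and 10.90 on control arrays. It lay above all controls where Gpx2 lay below them, without passing (0.29 ± 0.094, adjusted p = 0.124). Gpx4, which reduces lipid peroxides, stood at 0.16 ± 0.099 (adjusted p = 0.416). Of 6 red cell markers 2 were measured. Slc4a1 ranked the 6 arrays as Gpx1 did, at 11.07, 10.27 and 9.73 against 9.53, 9.31 and 8.32, but Alas2 did not and overlapped, at 11.63, 10.30 and 10.32 against 10.70, 10.61 and 9.69. The red cell markers had means of 10.03 to 11.35 against 9 to 10.11, and their part in the Gpx1 values was not tested. Of 5 superoxide dismutase and catalase genes, Sod1 alone was called, where 5.13% of all genes were called lower. At an unadjusted p under 0.05, 2 were lower and 0 higher, beside 10.6% and 11.5% of all genes. Sod2 stood at -0.03 ± 0.058 and the copper chaperone of Sod1, Ccs, at -0.027 ± 0.055 (adjusted p = 0.834 and 0.844). Their signs turned under 1 alternative each.

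Of 9 measured genes that supply NADPH, which glutathione and thioredoxin reductases spend, 1 rose, 1 fell and 7 did not pass (median 0.08). Of all genes 3.36% were called higher and 5.13% lower. Malic enzyme Me1, also a gene of lipid synthesis, read 10.96, 10.70 and 10.98 on knockout 1, 2 and 3 and 10.47, 10.39 and 10.33 on control arrays, and rose by 0.48 ± 0.087 (adjusted p = 0.0196). The mitochondrial isocitrate dehydrogenase Idh2 fell by 0.28 ± 0.054 (adjusted p = 0.0252, and 0.0556 with the replicate block). With the sex of the pool as a covariate Idh2 was not called either. Both Me1 and Idh2 missed the threshold when knockout 3 or a control was left out (adjusted p at most 0.0939 and 0.115). Around Hmox1, 0 of 8 genes of the haem and iron response were called by limma, where 8.49% of all genes were. At an unadjusted p under 0.05, 1 was higher and 1 lower, beside 11.5% and 10.6% of all genes. Biliverdin reductase Blvra stood at 0.19 ± 0.056 and the ferritin light chain Ftl1 at -0.26 ± 0.10 (adjusted p = 0.101 and 0.188). Among 13 genes that make oxidants, 1 rose and 0 fell, beside 3.36% and 5.13% of all genes. At an unadjusted p under 0.05, 2 were higher and 1 was lower, where 11.5% and 10.6% of all genes were. The NADPH oxidase organiser Noxo1, the 1 called, read 7.83, 8.02 and 7.88 against 7.50, 7.40 and 7.42. It rose by 0.47 ± 0.066 (adjusted p = 0.00903), a call lost without control 2 or control 3 (adjusted p at most 0.0540).

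**Figure D4:**
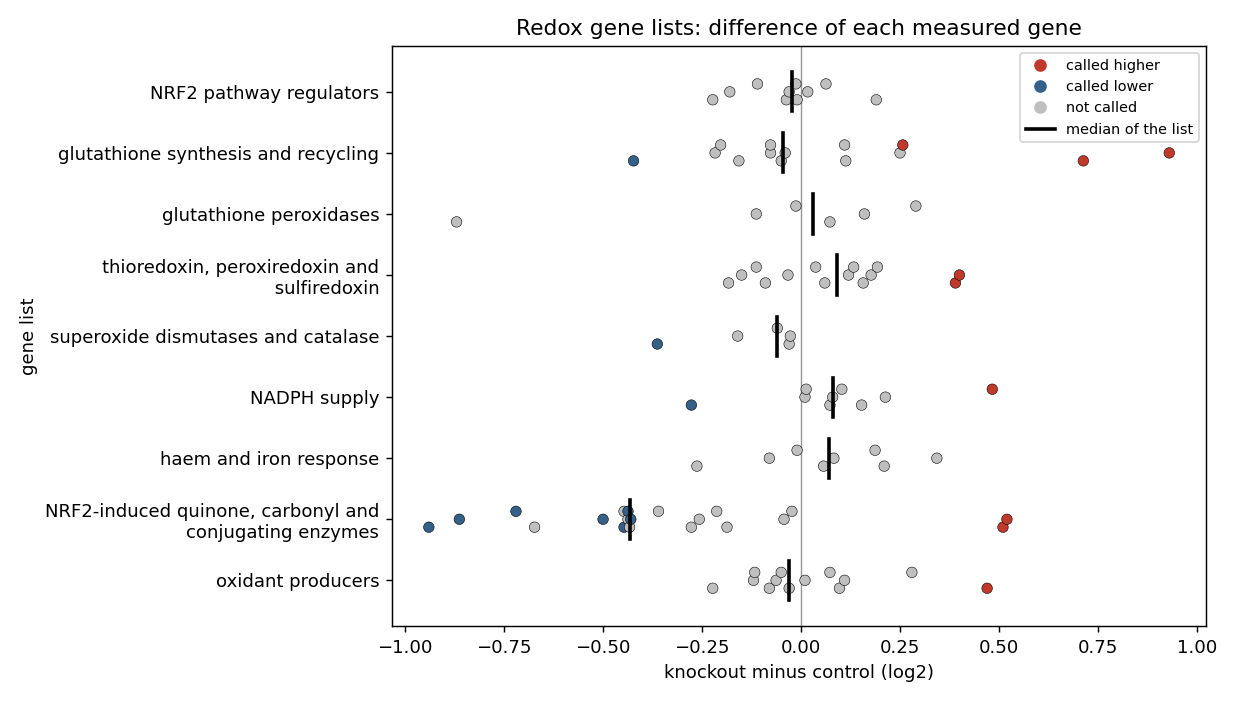
Difference between arrays labelled knockout and control arrays on log2 (x axis) for every measured gene of 9 redox gene lists (y axis). Red points were called higher, blue points lower, grey points were not called, and black bars are list medians. The quinone, carbonyl and conjugating enzymes have a median of -0.43 with 7 blue points, and the other 8 medians lie between -0.06 and 0.09.

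Over the 9 lists together, with each gene counted once, 9 of 99 measured genes were called higher and 10 lower, beside 3.36% and 5.13% of all genes. The lists were chosen with earlier results of these data known, so these shares are descriptive. Of the 10 lower, 7 were in the list of quinone, carbonyl and conjugating enzymes, and the other 3 were Sod1, Gss and Idh2. Of the 9 higher genes 0 ranked the arrays labelled knockout as Nqo1 and Gpx2 did, and 6.42% of all genes called higher did so.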

How the data were processed

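RNA of 6 pools was hybridised to 1 Affymetrix array each. The authors deposited log2 values. Per the submitters' processing notes they used RMA and Affymetrix Expression Console 1.1. This method removes background, equalises array distributions and summarises probes, so shifts shared by most genes are lost. The number of arrays limits the precision, and p-values measure the spread between pools. Of 35556 probe sets, 21789 had 1 gene symbol in the platform annotation, which gave 19938 genes. Groups came from the array titles. Differences were fitted by lmFit and eBayes of limma (version 3.58.1, R 4.3.3) with no trend. Tests were two-sided, p-values were adjusted over all genes by Benjamini-Hochberg, and the script was tested on simulated data. Alternatives changed the scaling, filter, variance model, weights, probe set choice and covariates, or left out 1 array.

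The members and lists were chosen with earlier results of these data known. Named genes were all members, up to 6 called genes of each list by smallest p (or 2 where none was called), Nfe2l2, Keap1, Bach1, Gpr116, and the 3 genes most correlated with each of the 2 members of smallest p. Others were chosen after their values were seen. Ggt1, Prdx5, Prdx6, G6pdx, Gsta1, Gsta2 and Ugt1a6a had no 1-symbol probe set and were not analysed here.

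Replicate numbers are shared by the groups. Same-numbered arrays deviated from their group means together (r = 0.192, 0.103 and 0.111), each above the limit of 0.1, so the fit with the number as a block is given where it changes a call. With every probe set included, r was 0.227, 0.038 and 0.106, and knockout 2 correlated more with control 3 (0.141) than with control 2. This pairing comes from the values and not from the labels, and it is weak. By Xist and Y-linked genes, knockout 1 and control 2 were female and knockout 2 and control 1 male. Same-numbered pools 1 and 2 thus differed in sex.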

Additional observations from a re-analysis of the deposited data

How the results depend on the processing

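Without 1 array, 2.3% to 9.67% of all genes were called, against 8.49% with all 6. Members called lower numbered 1 in the reported fit, 3 with array quality weights, 2 with the replicate block, 0 with the sex of the pool as a covariate and 0 to 3 without 1 array, and members called higher were 0 in all 15 alternatives. Sod1 was -0.36 and not called with the sex covariate, and -0.44 to -0.31 without 1 array. Gpx2 was called with array weights (-0.998) and with the replicate block (-0.87), and ranged from -1.15 to -0.64 without 1 array. Nqo1 was called with array weights (-0.81) and ranged from -0.97 to -0.42. Sod3 ranged from -0.53 to 0.365 and Hmox1 from -0.028 to 0.17 without 1 array, and Hmox1 was -0.002 with array weights. Over all lists 9 genes were called higher (2 to 9 without 1 array) and 10 lower (0 to 15, and 18 with array weights). Signs turned for Keap1 (0.02 on median-centred arrays, and -0.04 to 0.035 without 1 array, above 0 without knockout 3 or control 3), Ccs (0.003, median-centred) and Sod2 (-0.057 to 0.008 without 1 array, above 0 without control 1). The replicate block changed no call of other members. Over the other named genes and the single lists, 561 entries, gene differences and list counts together, were unchanged. For a gene this means the same sign and side of the threshold. For a list count it means a shift of at most 1.5 times, and some counts were 0 in both fits. Of the rest, 50 gene differences lost a call, 1 gained one and 43 list counts moved by over 1.5 times or to or from 0. The cause of these shifts was not tested.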
